A study of Mus musculus with 24 samples.

Results

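The aryl hydrocarbon receptor (AhR) complex and its feedback genes were followed in mouse bone marrow through 6 genes: Ahr, Arnt, Hsp90ab1, Ptges3, Ahrr and Tiparp. They were chosen by name, as the receptor, its DNA-binding partner, 2 of its chaperones, its repressor and its ADP-ribosylating repressor. Their 11 probes were found by the gene names on the array, and all 6 genes were among the 24476 genes tested. The series held 24 two-colour arrays in 10 groups. Every sample was marrow RNA of C57BL/6j females, 6 weeks old, injected intraperitoneally, and the labels describe each as a pool of 9 samples. The wild-type groups had received olive oil (3 arrays), benzo(a)pyrene (BP) for 6 h (2 arrays), DMBA, a dimethylated benz(a)anthracene, for 12 h (3 arrays) or TCDD, a tetrachlorinated dioxin, for 12 h (3 arrays). Mice labelled Cyp1b1-null had received oil (2 arrays) or DMBA for 12 h (2 arrays). Mice labelled Cyp1a1-null had received oil (3 arrays) or BP for 12 h (3 arrays). Mice labelled Cyp1b1/Cyp1a1-null, called double-null here, had received oil (1 array) or BP for 12 h (2 arrays). A dose of 50 mg/kg is the only one in the labels and is given once for all agents, and the oil groups carry no time. The labels do not say how the null alleles were made or whether the pooled samples were separate mice, so the p-values measure only the spread between these samples.

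The AhR is a ligand-activated transcription factor of the bHLH-PAS family that rests in the cytoplasm on a dimer of HSP90 with the co-chaperone p23. A planar aromatic ligand such as BP, DMBA or TCDD sends it to the nucleus, where it pairs with ARNT and binds short xenobiotic response elements with the core GCGTG near target genes. Among those targets are the cytochrome P450 genes Cyp1a1 and Cyp1b1, whose enzymes oxidise BP and DMBA but hardly TCDD, and the feedback genes Ahrr and Tiparp, whose products repress the receptor.

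Ahrr was the member that moved most. It rose after BP in wild-type, Cyp1a1-null and double-null marrow, by 1.87 to 2.77 on the log2 scale. Tiparp had higher values after BP and DMBA than after oil in most arrays, but in wild-type marrow after BP it did not pass the test with all arrays and passed it once an aberrant oil array was left out. At the brightest probe, which stands for a gene here, no transcript of the receptor machinery itself (Ahr, Arnt, Hsp90ab1 or Ptges3) passed the test in any of the 9 comparisons of the design, with or without that array.

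Values are log2(Cy3/Cy5), called log ratios here: Cy3 carried the sample, and Cy5 carried a common pool of marrow RNA from oil-treated wild-type mice on every array, so a log ratio of 0 is the level of that pool. A log ratio compares samples for 1 gene and gives no order between genes. In bulk RNA, fewer cells of a type and less RNA per cell cannot be told apart.

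The first wild-type oil array stood apart from the other 23. The standard deviation of its log ratios over all probes was 1.26, against 0.198 to 0.665 elsewhere, and the median of its Cy5 rank correlations (Spearman) with all others was 0.794, against 0.859 to 0.970. The median rank of 6 liver genes was at percentile 93.6 in Cy3 and 99.6 in Cy5 on that array and at most 27.6 and 32.2 elsewhere, while 0 of the 6 were above background on all arrays. The mean log ratio of the 7 neutrophil genes was 4.74 there and at most 1.37 on the others. All 7 neutrophil and all 7 erythroid markers, and 5 of 7 B-lineage markers, were above background on every array. The differences of the 6 members between treated and oil-treated wild type are therefore given with all arrays and without that array. Other results against wild-type oil are from all arrays unless the text says otherwise. The probes above background made up 38.3% to 84.8% of an array. On 4 arrays (TCDD replicates 1 and 2 and both Cyp1b1-null DMBA arrays) the background correction left a high Cy3 floor: its 5th percentile was 209 to 473, against 55.1 to 91.3 on the other 20. For dim genes, values from the scanner software's own processed signals are given beside the main ones. The Cyp1a1 probe was not well above background on any Cyp1a1-null or double-null array and was above it on every wild-type BP and DMBA array. The Cyp1b1 probe had log ratios of 0.51 and 1.08 in the oil arrays labelled Cyp1b1-null, and of 1.57 in double-null oil, against -0.06, -0.04 and 0.57 in wild-type oil. The sources used here do not give the deleted part, so that probe checks nothing.

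Ahrr encodes the AhR repressor, which competes with the receptor for ARNT and lacks its ligand-binding domain. The RefSeq promoter window of Ahrr (GRCm38.p6, minus strand, chr13:74292282-74292581, 250 bases before the gene start to 50 after) holds the response-element core GCGTG 3 times when both strands are searched. The 3 matches begin 107, 82 and 27 bases before the start. Of 32851 mouse promoter windows of that length, 32.4% held the core at least once, 11.1% at least 2 times and 3.91% at least 3 times. The longer form TNGCGTG, which contains the same core, was found 1 time in the Ahrr window and in 5.07% of all windows. The window is shown because Ahrr is the gene that rose after BP in 3 genotypes, with the core in capitals on either strand (CACGC on the printed strand is the core on the other). A match describes these letters and is not a measured binding site.
Ahrr promoter: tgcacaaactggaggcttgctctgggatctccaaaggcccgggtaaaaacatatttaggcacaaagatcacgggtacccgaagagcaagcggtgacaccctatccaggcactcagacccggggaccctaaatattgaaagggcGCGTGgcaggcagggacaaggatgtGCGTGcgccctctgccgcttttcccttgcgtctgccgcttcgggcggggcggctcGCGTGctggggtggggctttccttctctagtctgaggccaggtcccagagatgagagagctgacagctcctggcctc

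The Ahrr probe was well above background on 22 of the 24 arrays, not on wild-type oil replicate 3 or Cyp1b1-null oil replicate 1. In wild-type oil arrays its log ratio was 1.43, 0.16 and 0.78. After BP for 6 h it was 2.60 and 2.72. Both BP arrays lay above all 3 oil arrays, and the oil array nearest to them was the aberrant one. The difference was 1.87 ± 0.35 (SE, n = 2 and 3; 3.65-fold; limma, adjusted p = 0.0258), and without the first oil array it was 2.19 ± 0.33 (4.55-fold; limma, adjusted p = 0.00229). Ahrr was the 1 member of 6 called with all arrays, where 0.735% of all genes were called, and 1 of 2 called without that oil array, where 3.87% were called. With that array left out, the processed signals gave a difference of 3.48 and limma's adjusted p was 0.043, with 2 of 6 members and 0.229% of all genes called. The BP arrays shared no slide with any oil array: with the slide as a random block the difference was 2.03, limma's adjusted p was 1, and 0 of 6 members and 0% of all genes were called. Leaving out BP replicate 1 or 2 gave 1.93 and 1.81 (limma, adjusted p = 0.167 and 0.208).

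In Cyp1a1-null marrow the Ahrr log ratio was 0.16, -0.14 and -0.12 after oil and 2.42, 3.07 and 2.23 after BP for 12 h. The groups were separated by more than their whole spread. The difference of 2.60 ± 0.31 (SE, n = 3 and 3; 6.07-fold; limma, adjusted p = 0.00223) was the second largest of all 24476 genes by size. Ahrr was the 1 member of 6 called, beside 0.0327% of all genes. Without the first wild-type oil array, which enters this comparison only through the shared spread, limma's adjusted p was 0.000185, with 1 member and 0.155% of all genes called. On the 1 slide that held both groups, the single BP array exceeded the 3 oil arrays by 2.26. With the slide as a random block the difference was 2.31 (limma, adjusted p = 0.0139; 1 member and 0.0204% of all genes called). The processed signals without the wild-type array gave 3.38 (limma, adjusted p = 0.0287; 1 member and 0.049% of all genes called).

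In double-null marrow Ahrr was at -0.06 in the single oil array and at 2.87 and 2.55 after BP for 12 h. All 3 arrays were on 1 slide. The difference was 2.77 ± 0.47 (SE, n = 2 and 1; 6.80-fold; limma, adjusted p = 0.0124), the 8th largest by size, with the lone oil array assumed to vary like the other groups. Ahrr was again the 1 member of 6 called, where 0.282% of all genes were called. Without the first wild-type oil array limma's adjusted p was 0.00175, with 1 member and 0.519% of all genes called. With the slide as a random block it was 0.000351, with 1 member and 1.93% of all genes called. The processed signals without the wild-type array gave 3.63, but limma's adjusted p was 0.133, with 0 members and 0.143% of all genes called. Leaving out BP replicate 1 gave 2.60 (limma, adjusted p = 0.0604).

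The response of Ahrr to 12 h of BP was not distinguishable between double-null and Cyp1a1-null marrow. The double-null response minus the Cyp1a1-null one was 0.16, with a 95% interval of -1.03 to 1.36 (limma, adjusted p = 1). The interval is wide, so it does not show that the responses were alike. No member was called in that difference of responses, where 0.135% of all genes were called with all arrays and 0.204% without the first wild-type oil array. BP was given for 6 h in wild type and for 12 h in the null mice, and the group means of 2.66 ± 0.09 (SD, n = 2), 2.57 ± 0.44 (SD, n = 3) and 2.71 ± 0.23 (SD, n = 2) are set side by side without a comparison.

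After DMBA for 12 h in wild type, the Ahrr log ratio was 1.84, 1.68 and 1.41. These 3 arrays were above oil replicates 2 and 3 and overlapped the first. The difference was 0.85 ± 0.31 with all arrays (limma, adjusted p = 0.4) and 1.17 ± 0.30 without the first oil array (limma, adjusted p = 0.161). The processed signals gave 1.75 and 2.46 (limma, adjusted p = 0.453 and 0.409), in the same order. On the 1 slide with arrays of both groups, DMBA replicates 1 and 2 exceeded oil replicate 2 by 1.60. No member was called after DMBA, where limma called 0% of all genes with all arrays and 0.0981% without that oil array. At an unadjusted p under 0.05 from limma, 3 of 6 members and 3023 of 24476 genes passed, with the first oil array included. In the other comparisons, from the same fit, 0 to 4 members passed at that level.

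After TCDD for 12 h the Ahrr log ratio was 0.05, 0.17 and 1.24, and from the processed signals 2.95, 3.35 and 3.39. The arrays disagreed under the first treatment and lay close together under the second. The low values came from TCDD replicates 1 and 2, whose Ahrr Cy3 signals after background correction, 327 and 528, were near those arrays' floors of 287 and 473. The difference from oil was -0.30 ± 0.31 with all arrays (limma, adjusted p = 0.605) and 0.02 without the first oil array (limma, adjusted p = 0.98). Without that array the processed signals gave 2.34 ± 0.60 (limma, adjusted p = 0.0259), where 1 of 6 members and 11.9% of all genes were called. With all arrays 2.12% of all genes were called after TCDD, without the first oil array 6.17%, and no member in either. The processed signals with all arrays gave 1.63 ± 0.63 (limma, adjusted p = 0.136). The sign of the difference thus turned with the background treatment, and it was called only when that treatment and the left-out array were combined.

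In Cyp1b1-null marrow the size of the difference, not its sign, moved with the background treatment. Ahrr was at -0.19 and -0.09 after oil and at 0.35 and 0.07 after DMBA for 12 h, and its processed log ratios were -1.76 and -0.22 after oil and 3.51 and 1.15 after DMBA. The oil arrays were on 1 slide and the DMBA arrays on another, so slide and DMBA cannot be told apart for any member here. Both DMBA arrays were above both oil arrays on either scale, but the gap was far wider in the processed signals. Their Ahrr Cy3 signals, both 339, lay near floors of 209 and 259. The difference was 0.35 ± 0.38 (limma, adjusted p = 0.865) in the main values, and 3.32 ± 0.66 (limma, adjusted p = 0.0146) from the processed signals without the first wild-type oil array. With all arrays the processed difference was the same size, with an adjusted p of 0.0997 from limma. In the processed signals without that array 2 of 6 members, Ahrr and Tiparp (the latter from 1 DMBA array), and 7.46% of all genes were called. In the main values no member was called, beside 0.0245% of all genes with all arrays and 7.48% without the first wild-type oil array.

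**Figure D1:**
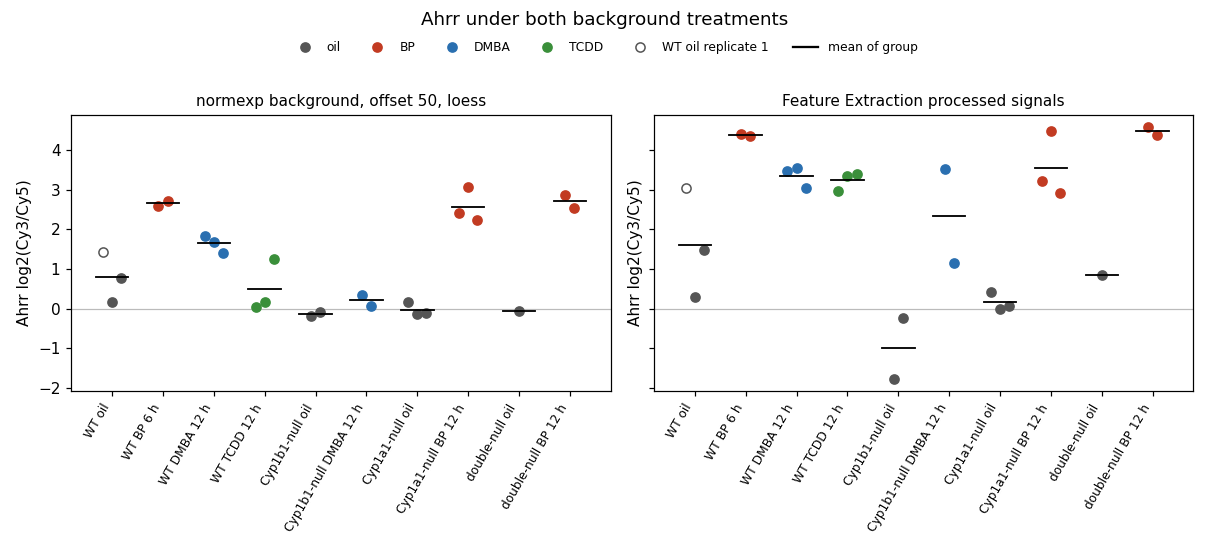
Ahrr log2(Cy3/Cy5) on each array by group (points; bars are group means), after normexp background correction and loess on the left and from the scanner software's processed signals on the right. BP arrays are high on both sides, whereas TCDD replicates 1 and 2 are at 0.05 and 0.17 on the left and at 2.95 and 3.35 on the right.

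DMBA and TCDD are the 1 pair of compounds given to the same genotype for the same time. Ahrr was 1.15 ± 0.31 higher after DMBA than after TCDD, with a 95% interval of 0.49 to 1.81 (limma, adjusted p = 0.126; without the first oil array, 0.0154). From the processed signals without that array the difference was 0.12, with an interval of -1.02 to 1.26 (limma, adjusted p = 0.901). Tiparp was 0.58 ± 0.35 higher after DMBA (limma, adjusted p = 0.711; without the first oil array, 0.0218) and 0.50 from the processed signals without that array, with an interval of 0.05 to 0.95 (limma, adjusted p = 0.135). No member was called with all arrays, where 0.646% of all genes were called, and 2 of 6 without the first oil array, where 6.26% were called. TCDD was alone on its slide, so slide and compound cannot be told apart there.

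Against wild-type DMBA, Ahrr after DMBA in Cyp1b1-null marrow was lower by -1.43 ± 0.35 (limma, adjusted p = 0.212), and without the first oil array limma's adjusted p was 0.0218. In the processed signals without that array the difference was -1.02 (limma, adjusted p = 0.383). From Cy3 alone with all arrays it was 0.22 (limma, adjusted p = 0.792), and with the slide as a random block without the first oil array -1.52 (limma, adjusted p = 0.718). Ahrr was the 1 member of 6 called without that array in the main values, where 1.57% of all genes were called, and with all arrays no member and 0.102% of all genes were called. The 2 responses to DMBA, each against its own oil group, differed for Ahrr by -0.50, with a 95% interval of -1.54 to 0.55 (limma, adjusted p = 0.675). No member was called in that difference of responses, beside 0.00817% of all genes with all arrays and 3.04% without the first oil array.

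In the main values, oil-treated null mice had lower Ahrr means than oil-treated wild type, by amounts that did not pass the test. Cyp1b1-null oil was -0.93 ± 0.35 from wild-type oil (limma, adjusted p = 0.0801), Cyp1a1-null oil -0.82 ± 0.31 (limma, adjusted p = 0.126) and double-null oil -0.85 ± 0.44 (limma, adjusted p = 0.326). The 3 comparisons share the same wild-type oil arrays. Without the first of these the differences were -0.61, -0.50 and -0.53, and none was called. Leaving out oil replicate 2 instead, so that the aberrant array stayed, gave -1.25 in Cyp1b1-null and -1.13 in Cyp1a1-null oil (limma, adjusted p = 0.0172 and 0.0234), and leaving out TCDD replicate 3 gave an adjusted p of 0.0444 in Cyp1b1-null oil from limma. From the processed signals without that array Ahrr fell in Cyp1b1-null oil by 1.88 (limma, adjusted p = 0.0414), as 1 of 6 members called beside 30.7% of all genes, although 1 of the 2 arrays in each group was not well above background. On the processed scale without the first wild-type oil array, the wild-type oil mean was 0.89, the Cyp1a1-null oil mean 0.16 and the 1 double-null oil array 0.84. The authors' deposited table gives -2.31 for Ahrr in Cyp1b1-null oil, -1.16 in Cyp1a1-null oil and -0.47 in double-null oil. It gives 3.05 after BP, 2.04 after DMBA and 1.92 after TCDD in wild type, and 3.32 after DMBA in Cyp1b1-null marrow. After BP it gives 3.38 in Cyp1a1-null and 3.63 in double-null marrow. Its scale was matched to these arrays as log2, in the same direction, but the sources used here do not say which arrays entered it.

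No member passed the test in the 3 comparisons of oil groups. In Cyp1b1-null oil 15.4% of all genes were called with all arrays and 29.6% without the first wild-type oil array. In Cyp1a1-null oil the shares were 3.58% and 7.58%, and in double-null oil 1.57% and 6.09%. The median difference of the 6 members was -0.35, -0.33 and -0.24 in these comparisons, against 0.06, 0.02 and 0.04 over all genes. When oil replicate 2 was left out, Tiparp was also called, at -1.13 in Cyp1b1-null and -1.20 in Cyp1a1-null oil (limma, adjusted p = 0.0332 and 0.0231).

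Tiparp encodes an ADP-ribosyltransferase, itself an AhR target, that modifies the receptor and shortens its activity. Its RefSeq promoter window (GRCm38.p6, plus strand, chr3:65528197-65528496) holds the core 1 time, beginning 170 bases before the start. The window of Cyp1a1 (plus strand, chr9:57697363-57697662), the classic target, also holds it 1 time, 54 bases before the start. They are shown beside the 3 matches of Ahrr, as the other feedback gene and a known target. The window of Cyp1b1 also holds the core 1 time, and that of Nqo1, a further AhR target gene, 0 times. Of the other members with an entry, Ptges3 holds the core 2 times and Arnt 1 time.
Tiparp promoter: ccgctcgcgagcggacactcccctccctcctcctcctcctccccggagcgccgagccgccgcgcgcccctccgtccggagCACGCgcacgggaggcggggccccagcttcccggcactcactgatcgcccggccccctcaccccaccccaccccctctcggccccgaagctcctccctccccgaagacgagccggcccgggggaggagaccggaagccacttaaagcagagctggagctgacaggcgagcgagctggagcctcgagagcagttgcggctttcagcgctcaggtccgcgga
Cyp1a1 promoter: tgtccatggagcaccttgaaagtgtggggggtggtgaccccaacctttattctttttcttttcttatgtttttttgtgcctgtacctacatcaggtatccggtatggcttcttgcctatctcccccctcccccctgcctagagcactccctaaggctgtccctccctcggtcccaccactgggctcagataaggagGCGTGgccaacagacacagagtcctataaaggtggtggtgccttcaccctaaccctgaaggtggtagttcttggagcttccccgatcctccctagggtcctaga
The 60-base array probes that measured Ahrr and Tiparp begin as follows, in the orientation given by the array design.
Ahrr probe: ggaataaatacaagtgcccttatatttgca
Tiparp probe: tagagctgtacagatgtctcagtgaatcag

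In wild-type oil arrays the Tiparp log ratio was 2.19, 0.14 and 0.50. It was 2.01 and 1.69 after BP for 6 h, 0.65, 0.61 and 0.85 after DMBA, and 0.09, 0.31 and -0.04 after TCDD. The first oil array was above every other array in the series, and without it both BP arrays and all 3 DMBA arrays lay above the oil arrays. The BP difference was 0.90 ± 0.39 with all arrays (SE, n = 2 and 3; limma, adjusted p = 0.285) and 1.53 ± 0.17 without the first oil array (2.89-fold; limma, adjusted p = 0.000685). It ranked 4th by p-value among all genes there. From the processed signals without that array it was 1.43 ± 0.26 (limma, adjusted p = 0.0389). With the slide as a random block and all arrays it was 0.99 (limma, adjusted p = 1). Scaling between arrays, with all arrays kept, brought it past limma's threshold.

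The DMBA difference of Tiparp in wild type was -0.24 with all arrays and 0.39 ± 0.16 without the first oil array (limma, adjusted p = 0.767 and 0.462). Within the shared slide, DMBA replicates 1 and 2 exceeded oil replicate 2 by 0.49. The TCDD difference was -0.82 ± 0.35 with all arrays and -0.20 ± 0.16 without that array (limma, adjusted p = 0.196 and 0.457). Leaving out oil replicate 2 instead gave -1.23 after TCDD (limma, adjusted p = 0.0222). The DMBA difference thus changed sign, and the TCDD difference was called or not, with the choice of oil arrays.

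In Cyp1a1-null marrow Tiparp was at 0.19, 0.13 and 0.11 after oil and at 0.54, 0.55 and 0.82 after BP for 12 h. The groups did not overlap, and the difference was 0.50 ± 0.35 (SE, n = 3 and 3; limma, adjusted p = 0.555). Without the first wild-type oil array, which sets much of the spread estimate of this gene, the SE was 0.14 and limma's adjusted p was 0.0717. On the slide that held both groups the difference was 0.68. In double-null marrow it was at 0.08 after oil and at 0.73 and 0.27 after BP, a difference of 0.42 ± 0.52 (limma, adjusted p = 1). In Cyp1b1-null marrow it was at 0.20 and 0.23 after oil and at 0.86 in the 1 DMBA array that gave a value, since the spot on the other was an outlier. That difference was 0.64 ± 0.52 (limma, adjusted p = 0.728). From the processed signals, without the first wild-type oil array, it was 1.18 ± 0.32 (limma, adjusted p = 0.0384), with the lone DMBA array assumed to vary like the other groups.

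**Figure D2:**
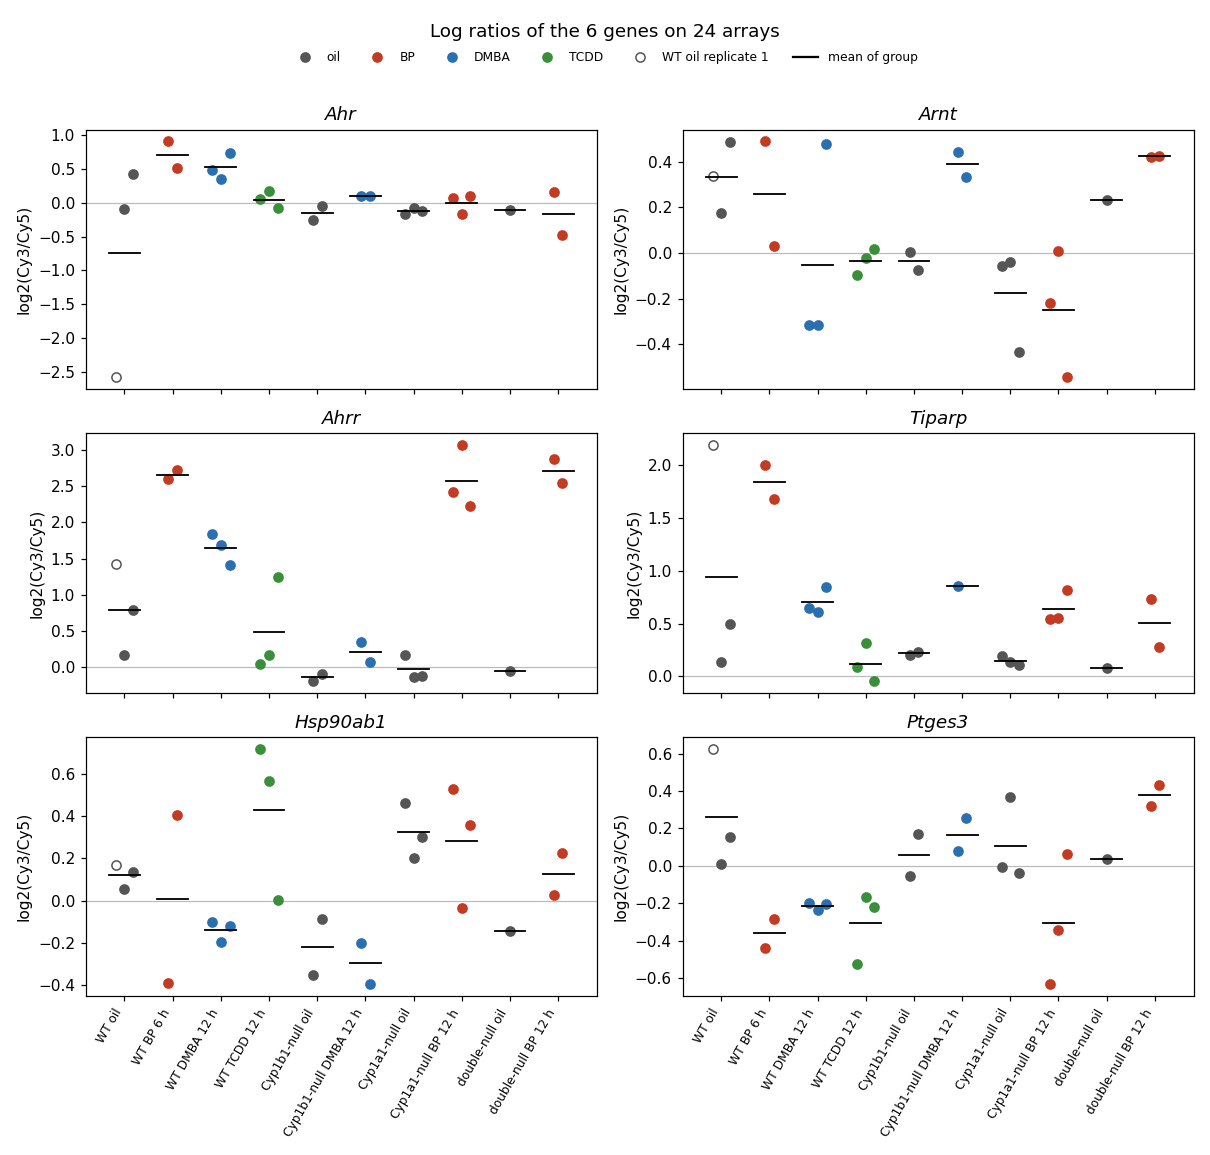
Log2(Cy3/Cy5) of each of the 6 genes on each array by group, with BP, DMBA, TCDD and oil in different colours and bars for group means; the open circle is the first wild-type oil array. Ahrr is at 2.23 or more in all 7 BP arrays and at 1.84 or less in all others, a split not seen in the processed signals, and the open circle is the lowest value of Ahr, at -2.58, and the highest of Tiparp, at 2.19.

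Ahr encodes the receptor. Its probe was spotted 10 times on each array, and the standard deviation of the log ratio over the usable spots of an array was 0.023 to 0.218. In wild-type oil the log ratio was -2.58, -0.09 and 0.43. It was 0.91 and 0.52 after BP, 0.49, 0.35 and 0.74 after DMBA, and 0.05, 0.17 and -0.08 after TCDD. The spread of the oil group was far wider than the spread of spots within an array. On the first oil array Ahr in Cy5, the common pool, was 1.85 above that array's 75th percentile (log2), against -1.19 to -0.03 on the other 23, while in Cy3 it was at -1.31 against -1.18 to 0.49.

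With all arrays the Ahr difference was 1.46 ± 0.54 after BP, 1.27 ± 0.48 after DMBA and 0.79 ± 0.48 after TCDD (limma, adjusted p = 0.221, 0.4 and 0.35). Without the first oil array the values were 0.54 ± 0.20, 0.35 ± 0.19 and -0.13 ± 0.19 (limma, adjusted p = 0.151, 0.629 and 0.71). Leaving out oil replicate 3 instead, which keeps the aberrant array, gave 2.05 after BP (limma, adjusted p = 0.0275). Without the first oil array the BP value was about as large as the gap between the remaining oil arrays. DMBA minus TCDD was 0.48 ± 0.48 (limma, adjusted p = 0.927; without that array, 0.106), and every DMBA array was above every TCDD array. In the processed signals the groups overlapped, with TCDD replicate 2 at 0.61 and DMBA replicates 1 and 2 at 0.52 and 0.36.

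In the null mice Ahr lay between -0.47 and 0.16. Cyp1b1-null arrays were at -0.26 and -0.05 after oil and at 0.11 and 0.11 after DMBA. Cyp1a1-null arrays were at -0.16, -0.08 and -0.12 after oil and at 0.07, -0.17 and 0.10 after BP. Double-null arrays were at -0.11 after oil and at 0.16 and -0.47 after BP, so that the 2 BP arrays lay on either side of the oil array. The differences were 0.26 ± 0.59, 0.12 ± 0.48 and -0.05 ± 0.72 in that order (limma, adjusted p = 1, 0.961 and 1). The authors' deposited table gives Ahr medians over its 10 spots of 0.42 after BP, 0.11 after DMBA and -0.13 after TCDD in wild type, and of 0.85 after DMBA in Cyp1b1-null marrow. For the latter the processed signals also gave 0.85 (limma, adjusted p = 0.63; without the first wild-type oil array, 0.0884).

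**Figure D3:**
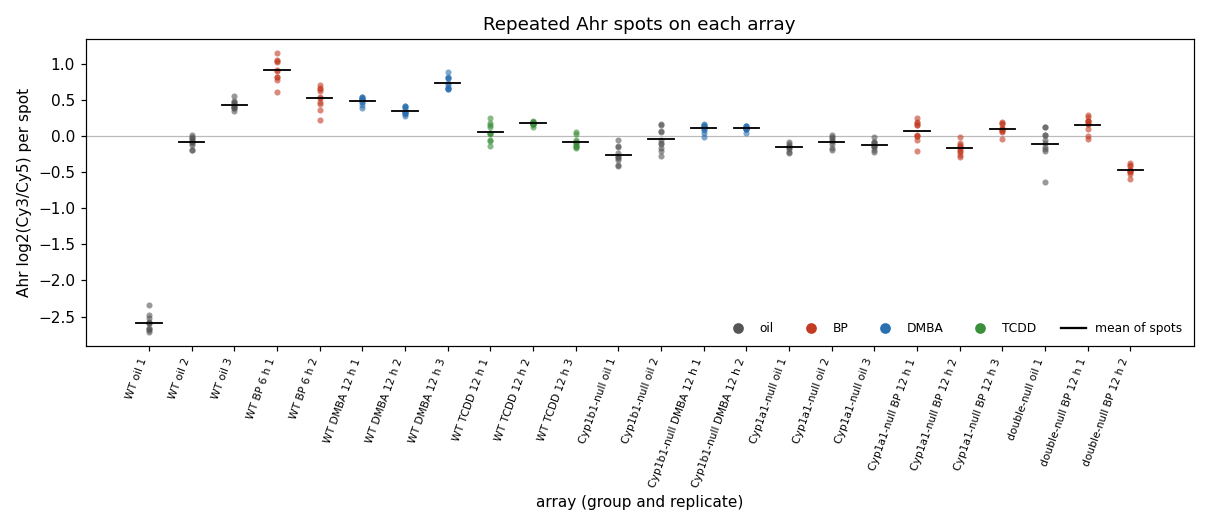
Log2(Cy3/Cy5) of each usable Ahr spot (points) on each of the 24 arrays, with the mean of the spots as a bar. Spots of an array lie close together (SD 0.023 to 0.218) while the first wild-type oil array is at -2.58, apart from the other 23.

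Arnt encodes the partner that the ligand-bound receptor needs to bind DNA. It was measured by 4 probes that behaved differently, so the starts of all 4 are shown.
Arnt probe 1: aataaccgacttgtttttaactgtgatctg
Arnt probe 2: ctttccacccttgacttgctgaagaaacgt
Arnt probe 3: cagagaatttcaggaatagtggtcttaccc
Arnt probe 4: atagtctcaacttcctttcaagactatcac
Probe 1 was the brightest and gave the value of the gene. Over the arrays, probes 2, 3 and 4 correlated with it at 0.28, -0.13 and 0.05, as a description of spots that share their arrays, and probe 4 was above background on 12 arrays only. The log ratio of probe 1 ranged from -0.54 to 0.49 over all arrays.

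Arnt was at 0.34, 0.17 and 0.48 in wild-type oil, 0.49 and 0.03 after BP, -0.32, -0.31 and 0.48 after DMBA, and -0.10, -0.02 and 0.01 after TCDD. The 3 DMBA arrays spanned most of the range of the gene, and all TCDD arrays lay below all oil arrays. None of these differences passed the test: -0.07 ± 0.22 after BP, -0.38 ± 0.20 after DMBA and -0.37 ± 0.20 after TCDD (limma, adjusted p = 0.903, 0.404 and 0.287). Without the first oil array the differences were -0.07, -0.38 and -0.36. Cyp1b1-null arrays were at 0.00 and -0.07 after oil and 0.44 and 0.33 after DMBA. That difference was 0.42 on probe 1, and 0.04, -0.46 and 0.06 on probes 2, 3 and 4. Cyp1a1-null arrays were at -0.06, -0.04 and -0.44 after oil and -0.22, 0.01 and -0.54 after BP. Double-null arrays were at 0.23 after oil and 0.42 and 0.42 after BP. On probe 1 the double-null BP arrays exceeded all Cyp1a1-null BP arrays, by 0.67 ± 0.22 on average (limma, adjusted p = 0.227; without the first wild-type oil array, 0.0913). Probes 2, 3 and 4 gave -0.06, -0.17 and 0.18 for the same difference with all arrays.

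Hsp90ab1 encodes the constitutive HSP90 beta chaperone that holds the receptor ready for ligand. It was at 0.17, 0.06 and 0.13 in wild-type oil, -0.39 and 0.40 after BP, -0.10, -0.19 and -0.12 after DMBA, and 0.72, 0.56 and 0.00 after TCDD. The BP arrays fell on either side of oil, all DMBA arrays lay below all oil arrays, and 2 of 3 TCDD arrays lay above them. The differences from oil were -0.11 ± 0.22, -0.26 ± 0.20 and 0.31 ± 0.20 (limma, adjusted p = 0.84, 0.538 and 0.378), and without the first oil array -0.09, -0.23 and 0.33. DMBA minus TCDD was -0.57 ± 0.20, with a 95% interval of -0.99 to -0.15 (limma, adjusted p = 0.301). In the null mice it was between -0.40 and 0.53. A second probe followed the first (r = 0.82 over the arrays) and was 1.00 higher in Cyp1a1-null oil than in wild-type oil in a fit over 35679 probes (limma, adjusted p = 0.0471), where the first probe gave 0.20 ± 0.20. Without the first wild-type oil array that difference was 0.83 (limma, adjusted p = 0.0778).

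Ptges3 encodes p23, the co-chaperone that stabilises HSP90 on the receptor. It was at 0.63, 0.01 and 0.15 in wild-type oil, -0.44 and -0.28 after BP, -0.20, -0.24 and -0.20 after DMBA, and -0.53, -0.16 and -0.22 after TCDD. On this brighter of its 2 probes every treated wild-type array lay below every oil array. The differences were -0.62 ± 0.20 after BP, -0.48 ± 0.18 after DMBA and -0.57 ± 0.18 after TCDD (limma, adjusted p = 0.158, 0.4 and 0.0954), against the same 3 oil arrays. Without the first they were -0.44, -0.30 and -0.39 (limma, adjusted p = 0.21, 0.681 and 0.17), and without oil replicate 2 the TCDD value was -0.69 (limma, adjusted p = 0.0247). The second probe of the gene (r = 0.63 with the first) was -0.66 ± 0.16 after BP (limma, adjusted p = 0.0696), and without the first oil array it fell by 0.76 (limma, adjusted p = 0.0194). After DMBA and TCDD the second probe gave -0.14 ± 0.15 and -0.02 ± 0.15 (limma, adjusted p = 0.666 and 0.955), and its treated and oil arrays overlapped there.

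In Cyp1a1-null marrow Ptges3 was at -0.01, 0.37 and -0.04 after oil and -0.63, -0.34 and 0.06 after BP, a difference of -0.41 ± 0.18 (limma, adjusted p = 0.285; without BP replicate 3, -0.60 and 0.0321). BP replicate 3 was the 1 BP array on the slide of the 3 oil arrays, and differed from their mean by -0.05. In double-null marrow it was at 0.04 after oil and 0.32 and 0.43 after BP, a difference of 0.34 ± 0.27 (limma, adjusted p = 1). After BP the double-null arrays were above all Cyp1a1-null arrays, by 0.68 ± 0.20 (limma, adjusted p = 0.193), and without the first wild-type oil array limma's adjusted p was 0.037. It was the 1 member of 6 called there, beside 3.64% of all genes, and with all arrays no member and 0.163% of all genes were called. In the processed signals without that array the difference was 0.61 (limma, adjusted p = 0.136). Leaving out Cyp1a1-null BP replicate 3 gave 0.87 (limma, adjusted p = 0.0169). Cyp1b1-null arrays were at -0.06 and 0.17 after oil and 0.08 and 0.25 after DMBA.

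**Figure D4:**
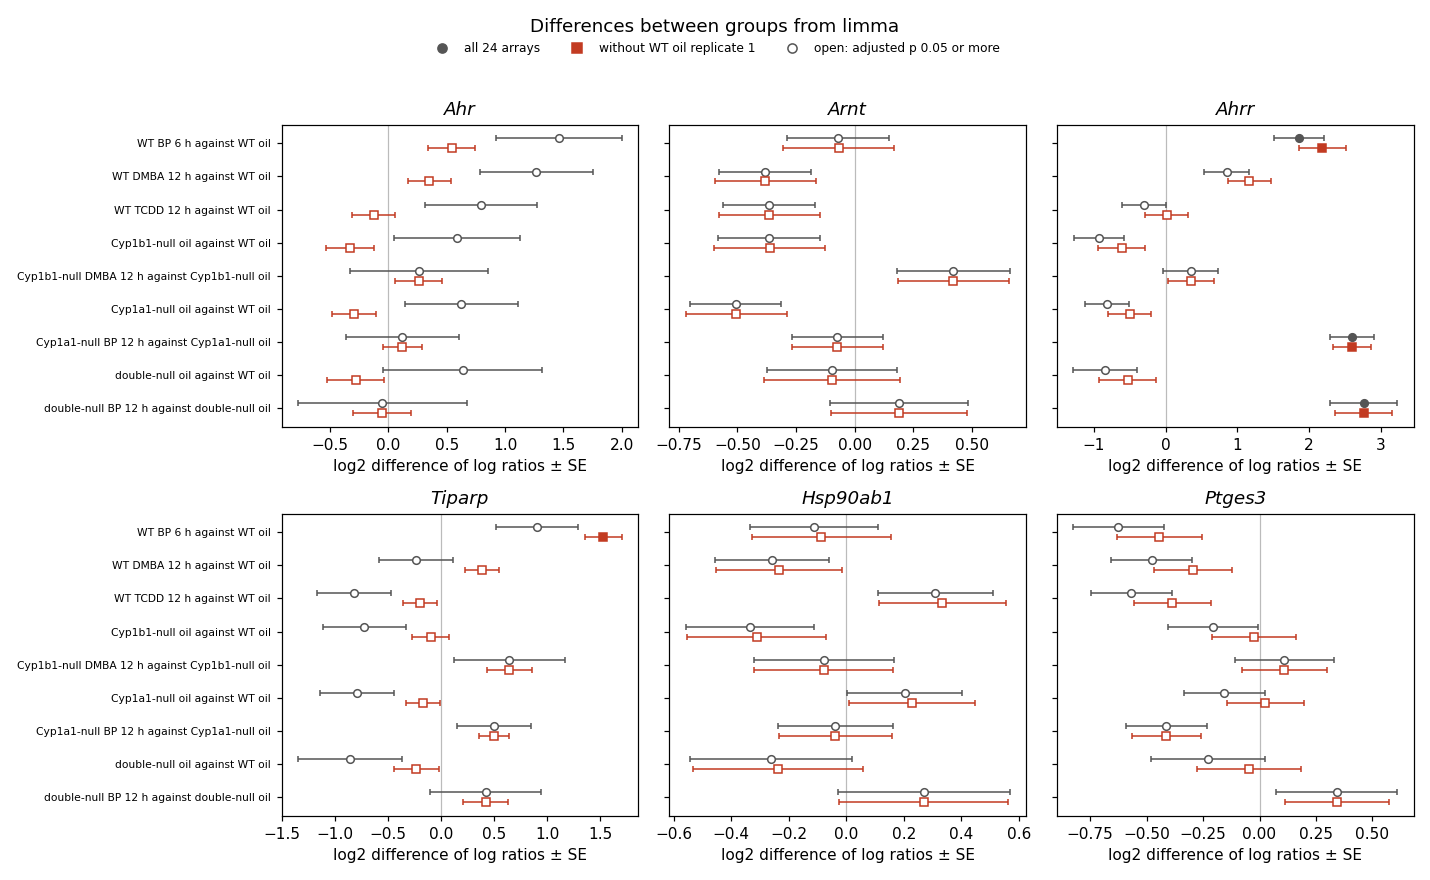
Differences in log ratio (log2, ± SE from limma) of the 6 genes in the 9 comparisons of the design, with all 24 arrays (grey circles) and without the first wild-type oil array (red squares); filled symbols passed an adjusted p of 0.05. Ahrr is filled in the 3 BP comparisons in both fits, Tiparp in wild-type BP without that oil array, and no other symbol is filled.

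The order of the group means differed between the feedback genes. For Ahrr the 3 BP groups came first (2.71, 2.66 and 2.57) and overlapped one another, wild-type DMBA was next at 1.64 ± 0.22 (SD, n = 3) and did not overlap them, and all groups below it down to Cyp1a1-null oil overlapped their neighbours. In the processed signals the wild-type DMBA arrays (3.05 to 3.54) overlapped the Cyp1a1-null BP arrays (2.90 to 4.48), and the TCDD mean of 3.23 lay beside the DMBA mean of 3.35. For Tiparp wild-type BP (6 h) was first at 1.85 ± 0.23 (SD, n = 2). Wild-type oil was second at 0.94 ± 1.10 (SD, n = 3) and overlapped it, but had a mean of 0.32 without its first array. The Cyp1b1-null DMBA array with a value was at 0.86. Cyp1a1-null BP (12 h), at 0.64 ± 0.16 (SD, n = 3), and double-null BP (12 h), at 0.50 ± 0.32 (SD, n = 2), lay near wild-type DMBA at 0.70 ± 0.13 (SD, n = 3). Ahrr and Tiparp correlated at 0.54 over the 23 arrays where both had a value and at 0.63 without the first oil array. Ahr and Tiparp correlated at -0.17 with the first oil array and at 0.77 without it, so that 1 array turned the sign. These are descriptions over arrays that share groups and a common reference.

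The genes whose log ratios were most like those of Ahrr over 24 arrays were Spint1 (r = 0.95), Gpnmb (r = 0.95) and Dpep2 (r = 0.94), and the same 3 came first over 23 arrays. For Tiparp they were Tlr7 (r = 0.89), Csf2rb2 and Serpinb2 (both 0.88) over 23 arrays with the first oil array, and ENSMUST00000127730, Ptgs2 and Ninj1 (each 0.88) without it. For Ahr the leading gene was ND4 (r = 0.96) with that array and Cd80 (r = 0.86) without it. For Arnt it was Rfk (r = 0.80) and then Nfx1 (r = 0.85). The gene most like Ptges3 over 24 arrays was Set (r = 0.85), and for Hsp90ab1 the unnamed transcript NAP056541-1 came first (r = 0.87), ahead of Eef2 (r = 0.72). The mean log ratio of 6 monocyte and macrophage markers, all above background on every array, was 0.85 to 1.01 in Cyp1a1-null BP against 0.45 to 0.67 in Cyp1a1-null oil, 0.48 to 0.54 in wild-type BP against -0.63 to 0.26 in wild-type oil, and 0.62 to 0.68 in double-null BP against 0.44 in double-null oil. In Cyp1b1-null marrow the mean of these markers was lower after DMBA (0.49 to 0.58) than after oil (0.69 to 0.78). In wild type it was 0.40 to 0.57 after DMBA and 0.14 to 0.39 after TCDD. The part of monocytes and macrophages in the Ahrr values was not tested.

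Other genes of the pathway moved in few comparisons. Of 6 tested genes of the AhR target battery, 2 rose after BP in wild type, beside 0.735% of all genes called. Cyp1a1 rose by 1.69 (limma, adjusted p = 0.0179), although only the first of the 3 oil arrays had it well above background. Nqo1, a quinone reductase, rose by 0.75 (limma, adjusted p = 0.0302). The list median was 0.82 against 0.01 over all genes, and without the first oil array 0.43 against 0.02. No battery gene was called after BP in Cyp1a1-null or double-null marrow, where the list medians were 0.10 and -0.11. Only 1 of the 6 was above background on all arrays, and Cyp1a1 is labelled null in both. In Cyp1a1-null marrow Nqo1 was at 0.51, 0.48 and 0.65 after BP and at -0.11, 0.04 and -0.07 after oil. There Cyp1b1 was at 0.24, 0.79 and 0.90 after BP and at -0.28, -0.02 and -0.21 after oil. In double-null marrow Nqo1 was at 1.13 and 1.40 after BP and at 0.98 after oil, and Cyp1b1 at 1.57 and 1.11 against 1.57. In double-null oil, a single array, Cyp1b1 was 1.41 and Nqo1 0.97 higher than in wild-type oil. The Cyp1b1 probe carries the limit given above, since the deleted part of that gene is not known here. Cyp1a1 was 1.25 higher after DMBA than after TCDD (limma, adjusted p = 0.0413), although its processed log ratios after TCDD were 2.11, 5.32 and 5.90, and lower by -1.73 after DMBA in Cyp1b1-null than in wild type (limma, adjusted p = 0.0332), with processed log ratios of 4.79 and 1.84 against 6.40 to 6.64.

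Of 13 genes of the HSP90 family and its co-chaperones, 1 was called after BP in wild type, where 0.735% of all genes were called. This was Ppid, a cyclophilin co-chaperone, which fell by 1.17 (limma, adjusted p = 0.0126). Hsp90aa1, the inducible paralog of Hsp90ab1, was at -1.65 ± 0.40 after BP (limma, adjusted p = 0.066), and without the first oil array it fell by 1.03 (limma, adjusted p = 0.0189).

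Of 7 tested bHLH-PAS relatives of Ahr and Arnt, Hif1a fell after TCDD by 1.52 (limma, adjusted p = 0.0343), where 2.12% of all genes were called. Arntl (Bmal1), the clock partner, was lower in Cyp1b1-null oil by -1.99 (limma, adjusted p = 0.0087) and in Cyp1a1-null oil by -1.45 (limma, adjusted p = 0.0489), the latter with an adjusted p of 0.0698 without the first oil array. Of 14 coactivators and corepressors, Ep300 and Ncoa4 fell after TCDD, by 1.26 and 1.06 (limma, adjusted p = 0.0479 and 0.0441), both just over the threshold without that array (0.0547 and 0.0573). In Cyp1b1-null oil, where 15.4% of all genes were called, Smarca4, Ncoa2 and Ep300 were lower by -1.66, -0.47 and -1.20 (limma, adjusted p = 0.00256, 0.0277 and 0.0308), and in Cyp1a1-null oil Ncoa4 dropped by 1.00 (limma, adjusted p = 0.0433; 0.0726 without that array). Of 11 genes of ADP-ribosyl transferases and hydrolases, near Tiparp in function, Parp1 and Parp11 were lower in Cyp1b1-null oil, the comparison with 15.4% of all genes called. Their differences were -1.67 and -0.77 (limma, adjusted p = 0.00266 and 0.0467). No gene of the last 3 lists was called after BP in any genotype with all arrays.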

How the data were processed

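Each array was scanned with Agilent Feature Extraction, version 10.7.3.1 on 4 arrays and 9.1.3.1 on 20, per the file headers. The spot intensities used (mean and median background signal per channel) are as deposited, not normalized, and the scanner's processed intensities are background-subtracted and dye-normalized, per the file headers. The submitters' processing notes name limma. The authors' deposited table gives log2 differences for 9 comparisons.

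Here, intensities were corrected with normexp (offset 50), normalized by loess within arrays and turned into log2(Cy3/Cy5) with limma 3.58.1 in R 4.3.3, with statmod 1.5.0 and data.table (version 1.17.8). Control spots and outlier spots were left out, spots of a probe were averaged, and the brightest probe stood for a gene. Genes well above background in Cy3 on at least 3 arrays were kept: 24476 of 28106, with 13 fewer in double-null oil comparisons. One linear model with a mean per group was fitted over all 24 arrays. Tests were two-sided, with Benjamini-Hochberg adjustment over all genes, called at an adjusted p under 0.05. Dyes were not swapped, and the number of arrays limits the precision. Slides, 10 in all, were tested as batches.

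The 6 genes and the gene lists were chosen with earlier results of these data known. Named are the 6 members, Cyp1a1 and Cyp1b1, up to 4 called genes with the smallest adjusted p per list and comparison, and the 3 genes most correlated with each member. Hsp90aa1, outside that rule, was named after its values were seen. One gene that the rule names is not reported here. Promoters and gene names are from RefSeq, assembly GRCm38.p6. The fit was tested on simulated data.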

Additional observations from a re-analysis of the deposited data

Results flagged for a closer look

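In 3 cases every array of one genotype moved one way under a ligand and every array of another genotype moved the opposite way. Tiparp after DMBA was lower than the oil mean on all 3 wild-type arrays and higher on the Cyp1b1-null array with a value. The responses differed by 0.88 (limma, adjusted p = 0.564), and by 0.26 without the first wild-type oil array (limma, adjusted p = 0.61), when all 3 wild-type DMBA arrays were above the oil mean and the movements were no longer opposite. On its brighter probe, Ptges3 after DMBA was lower than the oil mean in wild type and higher in Cyp1b1-null marrow, where DMBA and oil arrays overlapped. The second probe gave -0.14 in wild type and -0.03 in Cyp1b1-null marrow, lower in both. On the brighter probe the responses differed by 0.59 (limma, adjusted p = 0.427), or 0.41 without the first wild-type oil array (limma, adjusted p = 0.363). Ptges3 after BP was lower than the oil mean in Cyp1a1-null and higher in double-null marrow, with responses that differed by 0.75 (limma, adjusted p = 0.651; without that array, 0.322). None of these differences of responses passed the test.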

How the results depend on the processing

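Of 3057 values of the 6 genes under other settings, 2998 kept their side of the threshold. Of these, 121 changed direction but were called in neither fit. A call was lost in 22 values and gained in 36. With a call, 1 value reversed: Ahrr after TCDD in wild type, at 2.34 from the processed signals without the first wild-type oil array. The cause of these shifts was not tested beyond the Cy3 floor described. Numbers of members called, where they moved, are as follows. After BP in wild type, 1 member became 0 without background subtraction, from processed signals, from Cy3 alone, with the slide as a random block (also without the first oil array, and also from processed signals without it, an alternative chosen after seeing the data) and with a trended robust prior. It became 2 with scaling between arrays, with the mean of probes and from processed signals without the first oil array. After BP in Cyp1a1-null and in double-null marrow, 1 became 0 without background subtraction, from processed signals, with scaling, with the robust prior and in the added combination, and for double-null also from Cy3 alone and from processed signals without that array. After TCDD, 0 became 1 from processed signals without that array. In Cyp1b1-null oil 0 became 1 from processed signals, with or without that array, and from Cy3 alone, which also gave 1 in Cyp1a1-null oil. After DMBA in Cyp1b1-null marrow 0 became 2 with scaling, 1 from Cy3 alone and 2 from processed signals without that array. Scaling and Cy3 alone each gave 1 for DMBA against TCDD, and scaling gave 4 for DMBA in Cyp1b1-null against wild type and 3 for the difference of their responses. Leaving out 1 array gave 0 to 2 members called after BP in wild type, after TCDD, in Cyp1b1-null oil, in Cyp1a1-null oil and for DMBA against TCDD. It gave 1 to 2 after BP in Cyp1a1-null, 0 to 1 after BP in double-null marrow, for double-null against Cyp1a1-null BP and for Cyp1b1-null against wild-type DMBA. Over 82 pairs of arrays with the same replicate number in different groups, deviations from the group means correlated at -0.25 to 0.33, so the numbers do not pair the arrays. With the replicate block, Ahrr rose by 1.88 after BP in wild type (limma, adjusted p = 0.039), and each comparison had as many members called as without it. Low Ahrr signals over background limit its fold changes.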
